A study of Mus musculus with 6 samples.

Results

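A set of 10 genes of the IL-17 pathway, of the 21000 protein-coding genes in the annotation, was followed through the places that p65 occupied in mouse epidermal cells. They were the ligands Il17a, Il17f and Il17c, the receptor chains Il17ra, Il17rc, Il17rd and Il17re, the adaptor gene Traf3ip2, the RNase gene Zc3h12a and the IL-17 target Lcn2. A p65 peak was assigned to the gene whose transcription start site lay nearest to the middle of the peak, and peaks within 50 kb of a start site were listed as well. The rule uses gene names and positions and no measured strength.

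The study sequenced the DNA that an antibody against p65, the product of Rela, pulled down with chromatin (ChIP–seq) from epidermal cells that were released from the skin of C57bl/6J mice with trypsin. Adult mice received no treatment, and aged mice were injected intraperitoneally for 12 weeks with a control IgG (aged/IgG control) or with blocking antibodies against IL-17A and IL-17F (aged/anti-IL-17A/F). Reads of the individual mice of a condition were merged before peaks were called, so each condition was 1 peak list with no replicates, and no test between conditions could be made. There were 8525 peaks in adult, 4169 with the IgG and 6014 with the antibodies, after all pools had been reduced by the authors to the same number of reads, and the 3 input samples were not analysed here. The number of reads behind a single peak is unknown. Intervals given below cover counting error only. The peak names in the list labelled adult start with the word Treated, as do those in the list labelled aged/anti-IL-17A/F, whereas those of the aged/IgG control list start with Control. The labels were followed throughout, and the aged groups are called IgG control and anti-IL-17A/F from here on. Of the marker genes of cell types, 10, 5 and 8 of 10 keratinocyte genes had an assigned peak in adult, IgG control and anti-IL-17A/F, as did 1 of 5 T-cell genes and 1 of 5 myeloid genes in each list and 1, 0 and 1 of 5 fibroblast genes. The shares of all protein-coding genes with a peak were 23.0%, 12.9% and 17.4%, so the counts for the other cell types were about as large as for genes in general. A peak is a bound place and not a measure of expression, and the cell types present were not measured here.

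IL-17A and IL-17F are cytokines secreted mainly by T cells and innate lymphoid cells. They bind a receptor of IL-17RA and IL-17RC on epithelial cells, and IL-17C, which epithelial cells make themselves, binds IL-17RA with IL-17RE. The receptors recruit ACT1, encoded by Traf3ip2, which passes the signal through TRAF proteins and kinases to NF-κB and also stabilizes messenger RNAs of inflammation. Zc3h12a encodes Regnase-1, an RNase that destroys such messengers and limits the response, and Lcn2 encodes lipocalin-2, an antimicrobial protein that keratinocytes secrete when IL-17 acts on them.

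The κB consensus, the 10-base sequence that NF-κB dimers recognize, occurred 6 times in the peaks of Zc3h12a, and each of the 6 matches lay within a peak in all 3 lists. These matches were sought over the whole width of the peaks, and some lay more than 100 bp from the summit. They are shown in windows of 61 bases because they are sequence content of the peaks of the group that were shared by all 3 lists. Letters are the plus strand of GRCm38 (mm10), Zc3h12a is transcribed from the minus strand, and capitals mark the match.
Intron 2, distal peak, chr4:125122577-125122637: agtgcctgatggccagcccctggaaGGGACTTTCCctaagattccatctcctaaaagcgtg
Intron 2, proximal peak, chr4:125124925-125124985: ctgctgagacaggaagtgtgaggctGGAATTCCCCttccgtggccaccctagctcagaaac
Intron 2, proximal peak, chr4:125125510-125125570: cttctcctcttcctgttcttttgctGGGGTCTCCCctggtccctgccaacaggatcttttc
Intron 2, proximal peak, chr4:125125737-125125797: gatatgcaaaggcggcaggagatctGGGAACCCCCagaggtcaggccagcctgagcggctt
Start-site peak (intron 1), chr4:125127420-125127480: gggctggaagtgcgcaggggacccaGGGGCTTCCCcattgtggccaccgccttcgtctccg
Upstream peak (intergenic), chr4:125134210-125134270: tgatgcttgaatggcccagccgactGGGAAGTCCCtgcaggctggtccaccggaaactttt
The distal match, GGGACTTTCC, was also the most frequent of these 6 spellings elsewhere, being found within 100 bp of the summit in 2.59% of adult peaks, 3.86% of IgG control peaks and 3.62% of anti-IL-17A/F peaks. The spelling read on the minus strand as GGGAGACCCC was rare and was found within that distance at 6 peaks in each list. The Zc3h12a match of this spelling lay more than 100 bp from every summit and is not among those 6.

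Besides 2 adult peaks of Zc3h12a, peaks called in 1 list only lay at the receptor genes Il17re and Il17rc, and they are shown because they differ between the lists. Neither held the κB consensus, and each had 1 match to a looser pattern, GGG and CC with 5 free bases between them, on the minus strand. It is marked in capitals in the 101 plus-strand bases around the summit, where it reads as its reverse complement.
Il17re, IgG control, chr6:113451497-113451597: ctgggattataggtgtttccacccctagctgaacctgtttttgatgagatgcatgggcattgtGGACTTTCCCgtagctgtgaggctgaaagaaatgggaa
Il17rc, adult, chr6:113472122-113472222: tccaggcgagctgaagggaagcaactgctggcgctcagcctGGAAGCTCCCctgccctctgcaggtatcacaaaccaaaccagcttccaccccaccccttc
The centre of the match lay 17.5 bp from the summit at Il17re and 4.5 bp from it at Il17rc. The looser pattern was common, within 100 bp of the summit in 72.8% of all IgG control peaks and in 67.9% of all adult peaks.

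By nearest start site, 4 of the 10 genes had a peak in adult (Il17ra, Il17rc, Traf3ip2 and Zc3h12a), 2 in IgG control (Il17re and Zc3h12a) and 2 in anti-IL-17A/F (Il17ra and Zc3h12a). Of all protein-coding genes, 23.0% had one in adult, 12.9% in IgG control and 17.4% in anti-IL-17A/F. With 10 members, these counts were not read as a difference from genes in general. Zc3h12a was the gene of the group with a peak in every list. With adult and anti-IL-17A/F reduced to the 4169 peaks of IgG control, each had 1 gene, Zc3h12a. Within 50 kb of the start site, 7 genes had a peak in adult, 6 in IgG control and 4 in anti-IL-17A/F, where the shares of all protein-coding genes were 43.4%, 27.5% and 35.0%. Some of these windows took in the same peak, since Il17re and Il17rc are neighbours on chromosome 6. Those of Il17c and Lcn2 held only peaks nearest to other genes. The window counts were not read as a difference from genes in general either.

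Merged over the lists, the peaks assigned to the group formed 10 sites. Of them, 4 were present in all 3 lists, and all 4 lay at Zc3h12a. In the whole data set 36.6% of 9513 sites were present in all 3 lists. A further 3 sites were in adult only, 1 in IgG control only, 1 in adult and anti-IL-17A/F, and 1 in adult and IgG control. No site was in the anti-IL-17A/F list only. Of all sites, 31.6% were in adult only, 1.84% in IgG control only, 17.0% in adult and anti-IL-17A/F, 3.91% in adult and IgG control, and 8.01% in anti-IL-17A/F only. With 10 sites, the counts of the group were not read as a difference from these shares.

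The ligand genes had no peak assigned to them in any list. Around Il17a (chr1:20730905-20734496) and Il17f (chr1:20777146-20785274), which sit side by side, there was no peak within 50 kb. The closest one was nearest to Paqr8, with its middle 160237 bp from the Il17a start in adult, 160261 bp in IgG control and 160199 bp in anti-IL-17A/F. From the Il17f start the same peaks were 106872, 106896 and 106834 bp away. No list had a call near the 2 genes whose products the antibodies block.

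Il17c (chr8:122422020-122423639) had no peak of its own either, but a peak downstream of its start was present in every list, at 22504, 22533 and 22504 bp in adult, IgG control and anti-IL-17A/F. It lay in an exon of the noncoding RNA gene 9330133O14Rik, with a fold enrichment over local background of 3.82 in adult, 3.26 in IgG control and 2.68 in anti-IL-17A/F. Its summit window had no κB consensus and had 1 match to TGANTCA, the AP-1 motif, which was sought on both strands and was within 100 bp of the summit in 13.2% of adult peaks, 14.1% of IgG control peaks and 14.4% of anti-IL-17A/F peaks. In adult alone, a second peak lay 39873 bp downstream, was nearest to Snai3 and had a fold enrichment of 3.05, with a κB consensus centred 23.5 bp from its summit.

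Among the receptor genes, Il17ra, which encodes the chain shared by the receptors of the family, had a peak just inside the gene in adult and in anti-IL-17A/F. In adult it spanned chr6:120463221-120463527, its middle lay 177 bp downstream of the start, and its summit lay in a coding exon. It had a fold enrichment of 2.91 and ranked 6714 of 8525. In anti-IL-17A/F it spanned chr6:120463332-120463730 with its middle 334 bp downstream and its summit in intron 1. There its fold enrichment was 2.41 at a −log10 q of 4.47, and it ranked 5821 of 6014, so it was among the weakest peaks of that list. In IgG control no peak overlapped it, and the closest peak to the Il17ra start was 116778 bp away. Most adult peaks of this strength had no counterpart in the aged lists. In the decile of this peak by fold enrichment, with 850 adult peaks, 18.5% had one in IgG control and 34.2% in anti-IL-17A/F.

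Il17rc, the partner chain for IL-17A and IL-17F, had a peak in adult only, in intron 2 of 16 at chr6:113472004-113472343, with its middle 719 bp downstream of the start. It had a fold enrichment of 2.78, a −log10 q of 6.96 and a rank of 7142 of 8525. In its decile, with 859 adult peaks, 12.8% had a peak in IgG control and 30.3% in anti-IL-17A/F. Among the 3002 sites seen in adult only, it ranked 2093, below their median fold enrichment of 3.03.

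Il17re, the chain that pairs with IL-17RA to bind IL-17C, showed the opposite pattern, with a peak in IgG control only. This peak was intergenic, at chr6:113451359-113451780, with its middle 7201 bp upstream of the Il17re start. Its fold enrichment was 3.68 at a −log10 q of 12.2, and it ranked 2270 of 4169, close to the middle of its list. Of the 417 peaks of its decile of fold enrichment in IgG control, 93.8% had a peak in adult and 85.4% had one in anti-IL-17A/F, and this one had neither. The closest adult peak was 20224 bp away, at Il17rc, and the closest anti-IL-17A/F peak was 134810 bp away. Sites in IgG control only were few, 175 of 9513, and the Il17re site ranked 11 among them, above their median fold enrichment of 3.06. With 1 list per condition, the difference at Il17re has no replicate check. At this locus of adjacent receptor genes, then, adult had a call inside Il17rc, IgG control had one upstream of Il17re, and anti-IL-17A/F had none.

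Il17rd (chr14:27038964-27107286), whose product is an inhibitory relative of the receptors also known as SEF, had no peak within 50 kb. The closest was nearest to Appl1, at 68419 bp in adult, 68300 bp in IgG control and 68349 bp in anti-IL-17A/F.

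**Figure D1:**
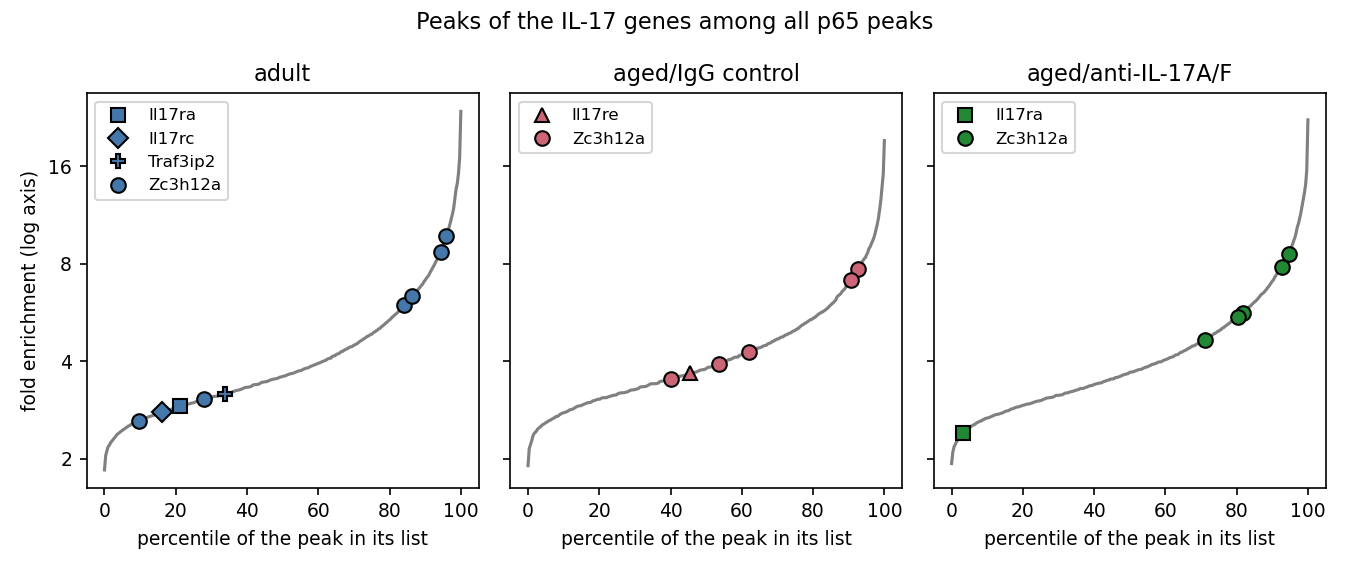
Fold enrichment (log axis) against percentile within the list for all p65 peaks of a list (grey line) and for the peaks assigned to the IL-17 genes (symbols), in 3 panels for adult, IgG control and anti-IL-17A/F. Receptor and adaptor peaks lay below the 50th percentile in every list, between 3.23 for Il17ra in anti-IL-17A/F and 45.6 for Il17re in IgG control, whereas the strongest Zc3h12a peak was at 95.9, 92.6 and 94.6. Other Zc3h12a peaks were lower, down to 9.71 in adult, 40.2 in IgG control and 71.0 in anti-IL-17A/F.

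For Traf3ip2, the adaptor gene, adult had a peak over the start site at chr10:39612891-39613401, with a fold enrichment of 3.18, a −log10 q of 10.9 and a rank of 5650 of 8525. It held 1 match to the κB consensus, GGGGCATTCC in the 5′ UTR, centred 51.5 bp from the summit. In IgG control a peak at chr10:39613325-39613642 overlapped it by 77 bp, with a fold enrichment of 3.13 and a rank of 3196 of 4169. This peak lay in intron 1 of Traf3ip2, but its middle was nearer to the start of Gm16364, so by the rule it did not count for Traf3ip2. Its summit was 383 bp from the adult summit, where the median shift over 3858 sites in both lists was 29 bp, and its summit window had no κB consensus. In anti-IL-17A/F there was no peak near the gene, the closest being 286161 bp away. In the decile of this adult peak, with 842 peaks, 40.9% had a peak in anti-IL-17A/F and 23.4% had one in IgG control.

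Zc3h12a (chr4:125118414-125127881, minus strand) carried most of the p65 peaks of the group, 6 of 9 in adult, 5 of 6 in IgG control and 5 of 6 in anti-IL-17A/F. Few genes had as many: 65 of 4836 genes with a peak in adult had at least 6, and 27 of 2705 in IgG control and 54 of 3648 in anti-IL-17A/F had at least 5, the median being 1 in each list. In each aged list, 2 of the 5 Zc3h12a peaks were parts of 1 merged site in intron 2 that was called as 1 peak in adult. Among the pathway genes described below, Nfkbia had 8, 6 and 8 peaks in adult, IgG control and anti-IL-17A/F, and Tnfaip3 had 6, 3 and 4. The peaks shared by all 3 lists fell at 4 places, 2 within intron 2, 1 over the start site and 1 upstream.

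The distal peak in intron 2 of 5, with its middle 5232 bp into the gene in adult, was the strongest of the group in adult and in IgG control. At chr4:125122270-125123028 in adult it had a fold enrichment of 9.74 and ranked 350 of 8525. At chr4:125122332-125122953 in IgG control it had 7.69 and ranked 311 of 4169, and at chr4:125122189-125122964 in anti-IL-17A/F it had 7.79 and ranked 443 of 6014. The 2 aged lists differed little here. The GGGACTTTCC printed above was centred 1.5 bp from the adult summit, 18.5 bp from that of IgG control and 52.5 bp from that of anti-IL-17A/F. Among peaks with the κB consensus, the median distance from the summit was 23.5 bp in adult, 24.5 bp in IgG control and 23.5 bp in anti-IL-17A/F.

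The proximal part of intron 2 was 1 wide peak in adult and 2 peaks in each aged list. The adult peak was 1660 bp wide, at chr4:125124422-125126081, with a fold enrichment of 8.71. In IgG control it was split into a peak of 7.15 at chr4:125124517-125125297 and one of 4.27 at chr4:125125402-125125983, with 104 bp between them. In anti-IL-17A/F the same parts had 8.58, which made it the strongest peak of the group in that list, and 5.66, with 199 bp between them. Such splits were rare: of 3818 sites with 1 adult peak and any in IgG control, 22 had several peaks there, and 7 sites had several in both aged lists. Of the 3 κB matches in this part, the first was centred 15.5 bp from the adult summit and 123.5 bp and 85.5 bp from the summits of the stronger peak in IgG control and anti-IL-17A/F, and the last was 77.5 bp and 35.5 bp from the summits of the weaker peak in IgG control and anti-IL-17A/F. The middle match was over 100 bp from every summit.

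**Figure D2:**
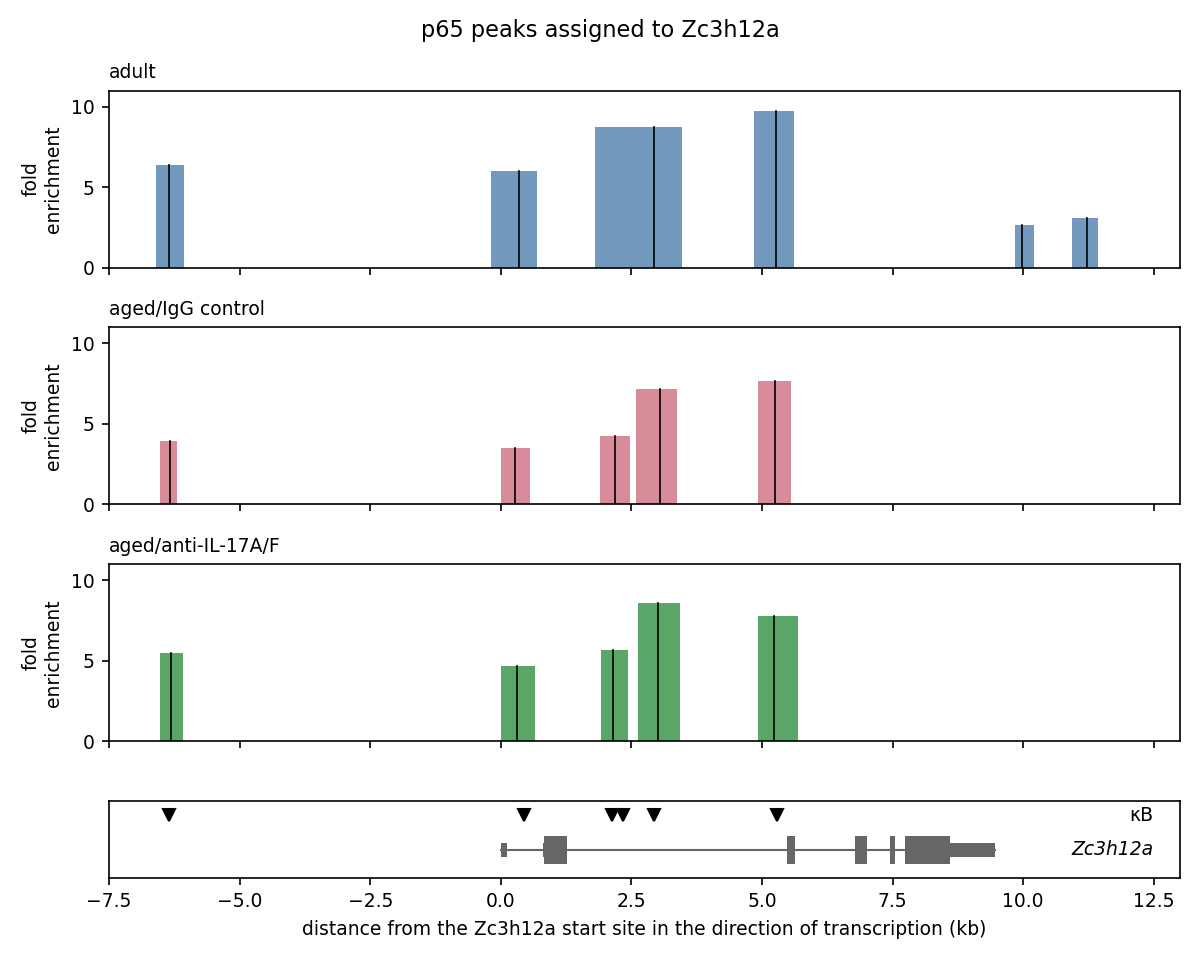
Peaks assigned to Zc3h12a in each list, drawn to scale by distance from the start site in the direction of transcription (kb). Bar height is fold enrichment, bar width is peak width, black lines are summits, triangles are the 6 κB matches, and boxes are exons (tall where coding). The peaks at 4 places recur in every list, and the 2 peaks past the last exon are in adult only.

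At the start site, the peak reached over the start and had its summit in intron 1. Its fold enrichment was 5.98 in adult (chr4:125127185-125128063), 3.54 in IgG control (chr4:125127320-125127885) and 4.67 in anti-IL-17A/F (chr4:125127221-125127887). The upstream peak, with its middle 6332 bp before the start in adult, had 6.38 in adult (chr4:125133947-125134479), 3.91 in IgG control (chr4:125134090-125134412) and 5.50 in anti-IL-17A/F (chr4:125133970-125134415). At both places, as at the 2 in intron 2, adult was the highest and IgG control the lowest. The κB match at the start-site peak was centred 88.5 bp from the adult summit, 151.5 bp from that of IgG control and 114.5 bp from that of anti-IL-17A/F, so neither aged summit had it within 100 bp. The upstream κB match was centred 13.5 bp from the adult summit, 18.5 bp from that of IgG control and 50.5 bp from that of anti-IL-17A/F. In adult 2 weaker peaks lay past the last exon, 10028 and 11185 bp downstream of its start, with fold enrichments of 2.62 and 3.05, and neither had a κB consensus or a counterpart in the aged lists.

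The fold enrichments of the lists were offset from one another, so the Zc3h12a sites were read against all sites present in both lists. The median log2 ratio of IgG control to adult was -0.30 over 3858 sites. The intron 2 sites followed it, at -0.34 for the distal and -0.28 for the proximal site, which are percentiles 46.0 and 52.0 of all sites. The start-site peak was at -0.76 (percentile 10.9) and the upstream peak at -0.71 (percentile 14.0). For anti-IL-17A/F over IgG control, the median was 0.14 over 3586 sites, and the Zc3h12a sites were at 0.02 (distal), 0.26 (proximal), 0.40 (start site) and 0.49 (upstream), percentiles 35.9, 63.4, 77.0 and 83.9. For anti-IL-17A/F over adult, the median was -0.15 over 5102 sites, and the sites were at -0.32, -0.02, -0.36 and -0.21. The ratios share lists and are not independent of each other. None of these differences could be set against a spread between mice.

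**Figure D3:**
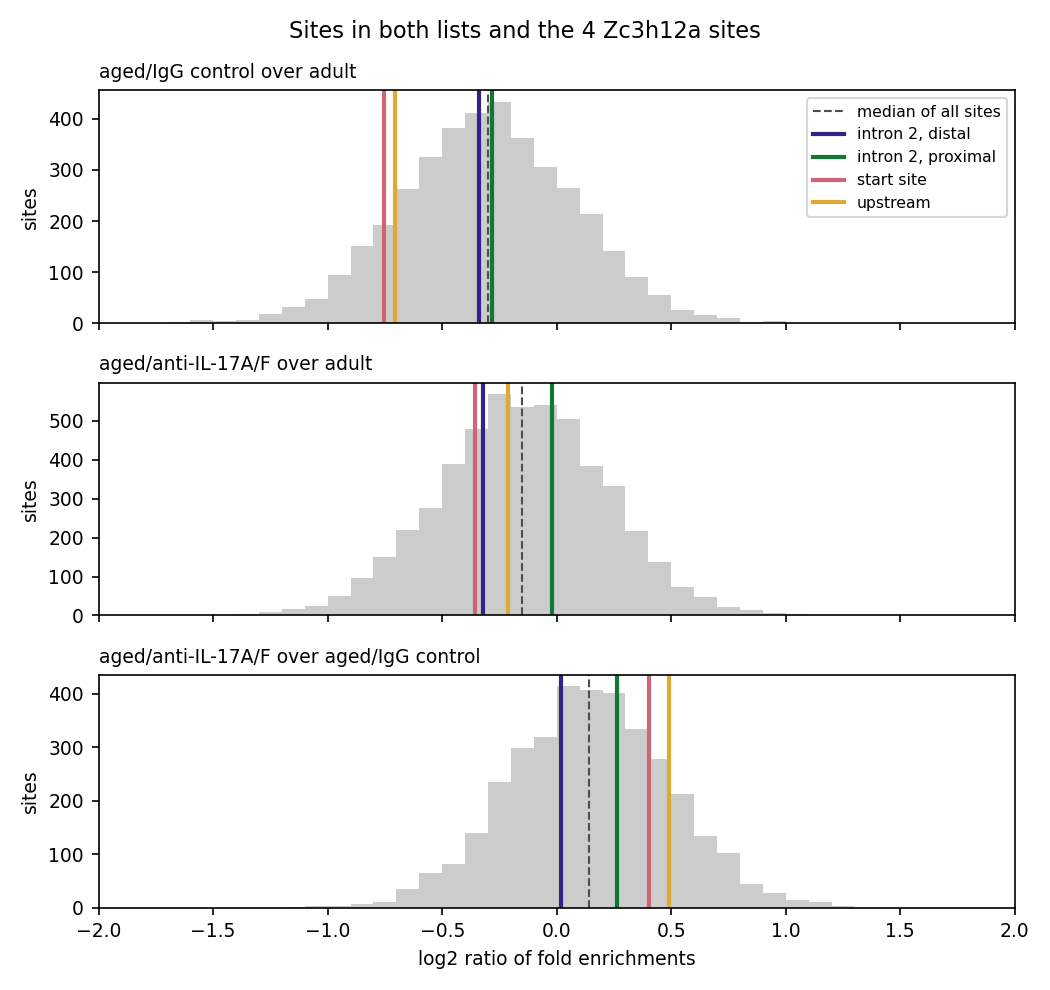
Number of sites by log2 ratio of fold enrichments for each pair of lists (grey bars, width 0.1), with the median of all sites in both lists (dashed) and the 4 Zc3h12a sites (coloured lines). In the panel of IgG control over adult, the intron 2 sites at -0.34 and -0.28 lie beside the median of -0.30, and the start-site and upstream peaks at -0.76 and -0.71 lie to the left of it.

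The genes whose strongest peaks were placed most like that of Zc3h12a over the 3 lists, among 2386 genes with a peak in every list, were Chd7, Synj2 and Ppp2r2b. Their largest difference in percentile from Zc3h12a was 0.696, 0.704 and 0.792 percentile points. Chd7, a chromatin remodeller, had fold enrichments of 9.43 in adult, 7.47 in IgG control and 8.38 in anti-IL-17A/F.

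Lcn2 (chr2:32384637-32387739), the IL-17 target of the group, had no peak assigned to it in any list. The peaks within 50 kb belonged to neighbours. A peak in an intron of Slc25a25, 36098 bp upstream of the Lcn2 start in adult, was present in every list with a fold enrichment of 6.06 in adult, 5.51 in IgG control and 7.24 in anti-IL-17A/F, the last being the highest. A second one, 37199 bp upstream in adult, had 5.59, 2.76 and 4.41 in the same order. Neither had the κB consensus. Adult had 2 further peaks in Slc25a25, 40714 and 43114 bp upstream, the second with a κB consensus centred 16.5 bp from its summit. IgG control had a weak peak at Ciz1, 24613 bp downstream, with a fold enrichment of 2.49 and a κB consensus 48.5 bp from its summit.

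Over the assigned peaks of the group, 5 of 9 in adult had the κB consensus within 100 bp of the summit (95% exact interval 21.2 to 86.3%), 3 of 6 in IgG control (11.8 to 88.2%) and 4 of 6 in anti-IL-17A/F (22.3 to 95.7%). All peaks of these lists had it at 28.5%, 37.8% and 34.9%, inside each interval. Most peaks of the group were neighbours at Zc3h12a and not independent, and the intervals were wide, so no conclusion was drawn from them. The κB consensus was more frequent in strong peaks, and in the top decile of fold enrichment the share was 61.0% in adult, 62.9% in IgG control and 62.7% in anti-IL-17A/F. All matches of the group were at Zc3h12a apart from the 1 at Traf3ip2. No assigned peak of the group had TTGCNNAA, a C/EBP motif sought on both strands, which was found at 9.81%, 9.57% and 9.63% of all peaks.

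The 300 bases from 250 before to 50 after the start were available from RefSeq (GRCm38.p6) for 8 of the 10 genes, all except Il17ra and Traf3ip2. None of these 8 promoters held the κB consensus, where 4.51% of 32851 promoters did. The Lcn2 promoter held 1 C/EBP motif, as 10.8% of promoters did, and the Il17a promoter held 1 AP-1 motif, as 7.81% did. A missing match says only that these letters are not in this window.

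Of 53 further genes of the pathway, 23 had a p65 peak by nearest start site in adult, 15 in IgG control and 20 in anti-IL-17A/F, where 23.0%, 12.9% and 17.4% of all protein-coding genes did. The list was chosen with earlier results of these data known and holds genes of NF-κB itself. These counts were therefore not read as a difference from genes in general. The 15 genes of IgG control were all among those of both other lists, so 8 genes with a peak in adult lacked one in IgG control, and none the reverse. Over all protein-coding genes the lists differed in the same direction, with 10.7% having a peak in adult and not in IgG control and 0.600% the reverse. With the other lists reduced to the number of peaks in IgG control, 15 of the 53 genes had a peak in adult and 17 in anti-IL-17A/F. By role, the ligands and receptors had a peak at 1, 0 and 1 of 4 genes in adult, IgG control and anti-IL-17A/F, the adaptors, kinases and ubiquitin enzymes at 9, 6 and 8 of 15, the transcription factors and RNA regulators at 7, 6 and 8 of 10, and the targets at 6, 3 and 3 of 24.

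The pathway genes with the strongest peaks were Nfkbia, Tnfaip3, Traf2 and Rela, and the top 3 of each list came from these 4. Nfkbia, which encodes the inhibitor IκBα, had a fold enrichment of 20.6 in adult, 19.2 in IgG control and 18.7 in anti-IL-17A/F. Tnfaip3, which encodes the deubiquitinase A20, had 13.8, 14.2 and 21.6. Traf2, an adaptor that takes part in messenger stabilization by IL-17, had 17.4, 8.46 and 13.4. Rela, the gene of p65 itself, had 13.03, 10.03 and 13.04. The strongest peak of Zc3h12a was below that of each of these genes in every list.

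The pathway genes that differed between lists had weaker peaks. Il25 (also called IL-17E) had a peak of 3.27 in adult and 3.44 in anti-IL-17A/F, Traf5 had 3.39 and 3.02, and Arid5a, whose product stabilizes messengers that Regnase-1 destroys, had 2.66 and 2.99, and all 3 had none in IgG control. In adult only, Traf6 had 2.68, Tab3 3.33, Il6 3.07, Il1b 3.03 and S100a9 3.45. In anti-IL-17A/F only, the kinase gene Ikbkb had 3.21 and Cebpb, a transcription factor of the IL-17 response, had 2.43. All of these were below the median fold enrichment of their own list, which was 3.60 in adult and 3.69 in anti-IL-17A/F.

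**Figure D4:**
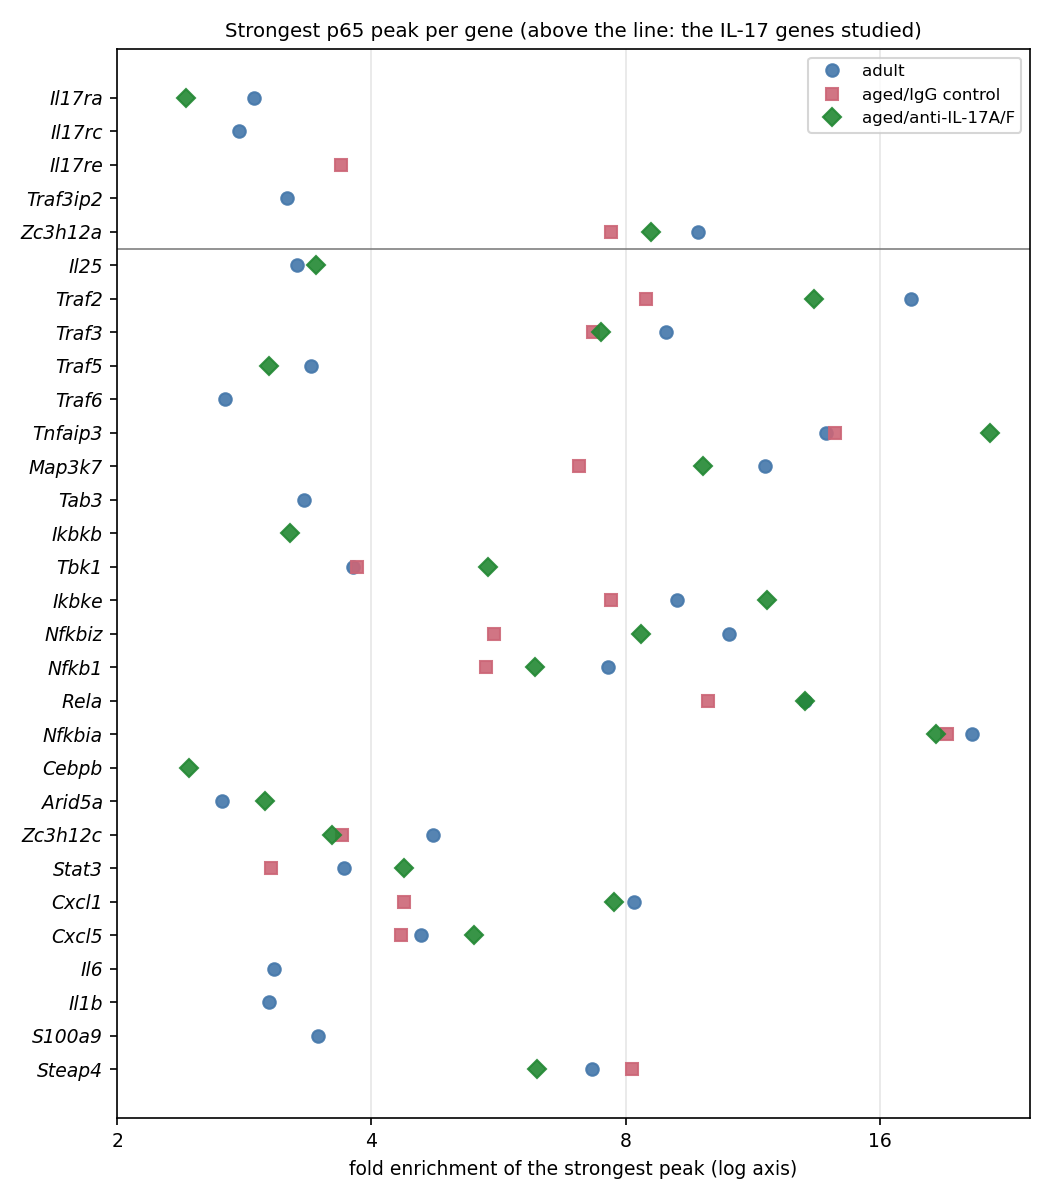
Fold enrichment (log axis) of the strongest p65 peak of each IL-17 gene studied (above the line) and each further pathway gene (below it) that had a peak in at least 1 list, one symbol per list. Genes missing a symbol had no peak in that list. The strongest peaks were at Nfkbia, between 18.7 and 20.6, and at Tnfaip3, up to 21.6, and the genes with a symbol in some lists only were all under 4.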

How the data were processed

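Peak lists of p65 ChIP–seq in epidermal cells were used for 3 conditions, with groups taken from the sample labels. Per the methods, the authors trimmed reads with Trimmomatic 0.36, aligned them to mm10, merged and deduplicated the mice of a condition, downsampled each pool to an equal number of reads and called peaks with MACS2. Use of the inputs in calling is not given in the sources used here. The deposited columns hold a score, a fold enrichment (a ratio to local background), the −log10 of the p-value and q-value and the summit offset. Pooling hides the spread between mice, and presence or absence of a weak peak depends on the cutoff of the caller.

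Peak middles were assigned to the nearest start site of curated RefSeq transcripts (GRCm38). Lists were merged at 1 bp of overlap. Ranks used fold enrichment, and a site took its strongest peak. Motifs on either strand were counted up to 100 bp from the summit. Members and gene lists were chosen with earlier results of these data known. The genes named were the 10 members, pathway genes in the top 3 of a list or differing between adult or aged/anti-IL-17A/F and aged/IgG control, the 3 genes most like the best-ranked member, and the gene at the closest peak where a member had none. No tests were run. Alternatives were stricter q values, equal peak numbers, other start sites, windows, overlaps, motifs and ranking. Assignment, merging and motif steps were tested on simulated data. Python 3.11.15, numpy 2.4.6, pandas 2.3.3, scipy 1.17.1, pysam 0.24.0, matplotlib 3.10.9 and bedtools 2.31.1 (as a check of merging) were used.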

Additional observations from a re-analysis of the deposited data

How the results depend on the processing

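Of 72 alternative values, 47 stayed within 1.5 times the reported count (or, for a rank, within its 95% exact interval) and 25 moved. With a −log10 q of at least 10, the genes with an assigned peak were 2 in adult (Traf3ip2 and Zc3h12a) and 1 in aged/anti-IL-17A/F (Zc3h12a), those with a peak within 50 kb were 4 and 2, and adult had 5 assigned peaks. At a −log10 q of at least 5 the Il17ra peak of aged/anti-IL-17A/F was lost, which left 1 gene. With an equal number of peaks per list, adult had 1 gene, 3 genes within 50 kb and 4 assigned peaks, aged/anti-IL-17A/F had 1 and 2 genes, and adult had 15 pathway genes, as many as aged/IgG control. With 10 kb in place of 50 kb the counts were 4, 3 and 2. The Il17re peak was kept at both stricter q values. Equal peak numbers remove nothing from aged/IgG control, the smallest list, and so do not bear on it. The 4 shared Zc3h12a sites were kept at both stricter q values and with equal peak numbers, and 3 of them met 50% overlap of both peaks. With 50 bp around the summit, 3 adult and 1 aged/anti-IL-17A/F peaks had the κB consensus. With the whole peak, 5 aged/IgG control peaks did. With the looser pattern, 8 adult and 6 aged/IgG control peaks had a match. Ranked by −log10 p, the strongest adult peaks of Il17ra, Traf3ip2 and Zc3h12a were at 6379, 5269 and 308, Il17re was at 2488 in aged/IgG control and Zc3h12a at 399 in aged/anti-IL-17A/F. With start sites of protein-coding genes only, the aged/IgG control peak in intron 1 counted for Traf3ip2, which gave 3 genes in that list. Depth per peak is unknown, so absence from a list is absence of a call.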
